A study of Mus musculus with 6 samples.

Results

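The circadian clock genes *Per1*, *Per2*, *Per3*, *Cry1*, *Cry2*, *Clock*, *Arntl*, *Npas2*, *Dbp* and *Tef* were examined in ribosome-bound RNA of *Kiss1* cells from the medial amygdala (MeA) of female mice. They were chosen by symbol, and all 10 were listed among the 13886 genes of the log2 CPM table. CPM is a library's counts scaled to a common depth, and the paper states that its analyses were restricted to protein-coding regions. The mice were Kiss1Cre+/Rpl22HA+/+, in which Cre recombinase of the *Kiss1* line puts an HA tag on ribosomes, so that tagged ribosomes and their RNA can be pulled down from a tissue punch. Ovaries were removed from every female at an age of 8 weeks, and 4 days of estradiol (E2) and 7 days without it followed in both groups. The E2 group was then given E2 for 5 days and the OVX group was not, and each of the 3 libraries per group held 1 pool of 4 mice, so p-values reflect the spread between pools. Because the tag stays once Cre has acted, it marks cells that expressed Cre at any time, the time before the experiment included. RNA of Cre-negative mice was not sequenced, for which the paper gives low RNA integrity as the reason, and neither was RNA of the whole punch. Background of the pull-down and enrichment in *Kiss1* cells therefore cannot be measured in these libraries.

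All females were killed between 11 h and 14 h with lights off at 18 h in a cycle of 12 h light, which is 5 h to 8 h after lights on. The hour at which each pool was collected is not given in the sources used here. Clock gene RNA is known to cycle over the day, and the values below are therefore levels in this window of the light phase and not rhythms.

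In the mammalian clock, CLOCK or its relative NPAS2 pairs with ARNTL (BMAL1) and switches on genes that carry E-boxes. Among those genes are the PER and CRY proteins, which return to the nucleus and inhibit the pair. The activators also drive the PAR bZIP factors DBP and TEF, which pass the rhythm on to output genes through D-boxes. The nuclear receptors REV-ERB and ROR form a further loop that acts on *Arntl*. Neurons outside the central clock of the suprachiasmatic nucleus, those of the amygdala included, carry the same machinery.

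Promoter stretches are shown to set the members' responses beside the clock elements that they carry. RefSeq promoter windows on GRCm38.p6, from 250 bases before to 50 after a start site, were available for 9 of the 10 genes (not *Per2*), in 14 windows. The E-box CACGTG was in 4 of these windows, from 3 genes (*Per1*, *Cry1* and *Tef*), and in 7.15% of all 32817 windows. The related CACGTT was in windows of *Cry1* and *Cry2* and in 4.69% of all windows. The D-box TTATGTAA was found only in *Per3* among these 9 genes, at 2 places, and in 0.935% of all windows. A ROR response element lay in a window of *Arntl* and in 0.774% of all windows. Both strands were searched, and the matches in the members' windows did not overlap each other. No member's window held the CRE TGACGTCA (1.79% of all windows) or the palindromic estrogen response element (0.0701% of all windows). Such a match is a run of letters and does not show that a factor binds there. Sequence outside these windows and variants of these letters were not searched, so a gene without a match need not lack the element. The stretches below are given 5′ to 3′ on the gene's strand, with the matched motifs in capitals (CACGTT appears as its reverse complement).
*Per1*, chr11:69098756-69098815, plus strand: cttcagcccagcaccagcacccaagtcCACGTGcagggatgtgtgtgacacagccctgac
*Cry1*, chr10:85185082-85185160, minus strand: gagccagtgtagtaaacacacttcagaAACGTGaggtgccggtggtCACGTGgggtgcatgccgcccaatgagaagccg
*Tef*, first start, chr15:81802519-81802578, plus strand: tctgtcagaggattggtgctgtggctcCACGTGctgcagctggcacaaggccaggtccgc
*Tef*, the other start, chr15:81811249-81811308, plus strand: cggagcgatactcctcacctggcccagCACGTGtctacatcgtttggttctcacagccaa
*Cry2*, chr2:92434203-92434262, minus strand: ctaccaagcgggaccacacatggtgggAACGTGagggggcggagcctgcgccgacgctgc
*Per3*, chr4:151044789-151044897, minus strand: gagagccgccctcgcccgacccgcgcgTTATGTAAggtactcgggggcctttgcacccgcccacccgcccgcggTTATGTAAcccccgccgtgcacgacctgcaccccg
*Arntl*, chr7:113207528-113207557, plus strand: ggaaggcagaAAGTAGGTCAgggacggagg

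Scaled library sizes rebuilt from the table were 28.1 to 34.2 M counts, and the members were covered by between 423 (*Cry1*) and 12875 (*Tef*) rebuilt counts in a library. The markers of neurons were listed in full (6 of 6), with a summed level of 4211 to 4507 CPM in OVX and 4222 to 4624 CPM in E2 libraries. *Kiss1*, which is listed as a pair of gene models, rose with E2 in the model ENSMUSG00000115958 from 1.75 ± 0.59 to 3.66 ± 0.19 log2 CPM (SD, n = 3, adjusted p = 0.00475, limma). The other model, ENSMUSG00000116158, had a larger difference of 5.05 with no overlap between the groups, but its OVX libraries spread widely (-2.12 ± 3.22) and it did not pass the threshold (adjusted p = 0.0942). Without the mean-variance trend limma called 0 genes, *Kiss1* included. Other cell types were also represented. All 6 of 6 markers were listed for astrocytes (474 to 644 CPM summed in OVX, 556 to 746 in E2), oligodendrocytes (1448 to 2032 and 1594 to 2239), microglia (109 to 140 and 108 to 125), endothelium (98.3 to 206 and 126 to 166) and choroid plexus (701 to 1090.0 and 414 to 1043). Of the pituitary markers 3 of 6 were listed (*Cga*, *Lhb* and *Tshb* were not), with 6.35 to 1029 CPM in OVX and 2.02 to 228 CPM in E2. The 6 of 6 forebrain excitatory markers summed to 855 to 1109 CPM in OVX and to 651 to 846 CPM in E2 libraries, which did not overlap. Most of this sum was *Slc17a7* (822 CPM in OVX and 613 CPM in E2, from mean log2 CPM). Taken singly, it was the only 1 of the 6 whose groups did not overlap. Clock genes are used in all of these cells, fewer cells of a type and less RNA per cell cannot be told apart, and the part of these cells in the values below was not tested.

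Per kilobase of the longest transcript, the mean of the 6 libraries placed the members in a clear upper part and a crowded lower part. *Tef* was highest (6.37 log2 CPM per kilobase), followed by *Dbp* (5.77), *Cry2* (5.14) and *Per1* (4.32), and none of these 4 overlapped its neighbour in any library. *Per3* (3.06), *Npas2* (2.94), *Arntl* (2.86), *Clock* (2.69), *Per2* (2.68) and *Cry1* (2.41) followed, and each overlapped the next in the order. Within the activators, *Npas2* and *Clock*, the alternative partners of *Arntl*, were thus on a similar level per length. Within the repressors, *Cry2* was above *Cry1* in each of the 6 libraries, and *Per1* was above *Per2* and *Per3*. By log2 CPM without regard to length, 9 of the 10 members were above the median of the table (4.76).

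**Figure D1:**
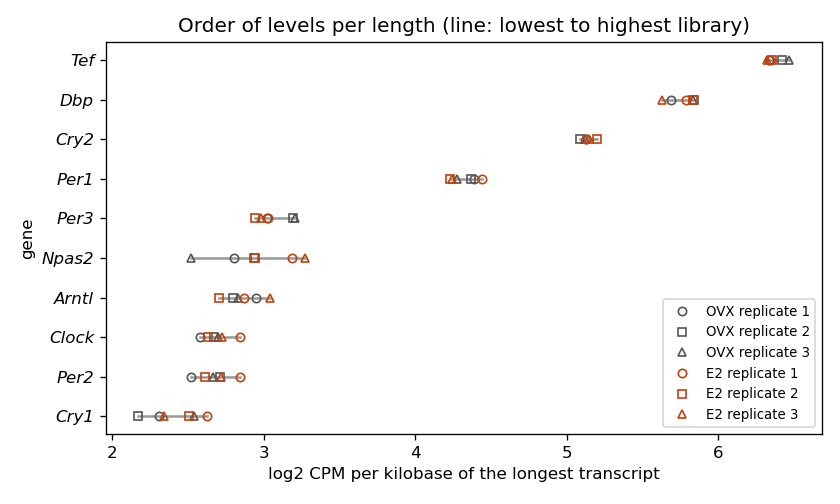
Level of each clock gene in the 6 libraries, as log2 CPM per kilobase of the longest transcript (x axis), with genes on the y axis, OVX libraries in grey and E2 libraries in orange; each line runs from the lowest to the highest library. *Tef*, *Dbp*, *Cry2* and *Per1* stand apart from each other, and the lower 6 genes overlap from one to the next.

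The comparison of E2-treated with OVX females asked whether 5 days of E2 shifted clock gene RNA on *Kiss1* cell ribosomes. None of the 10 members passed the threshold (adjusted p under 0.05, limma with a mean-variance trend, adjusted over all genes), where 0.288% of all genes did (0.23% higher and 0.0576% lower with E2). At an unadjusted p under 0.05 it was 1 of the 10, *Npas2*, beside 8.56% of all genes, and a second form of the test, with voom weights, also called 0 of the 10. The members' absolute log2 difference had a median of 0.08, against 0.09 over all genes, and 6 of the 10 were higher with E2. The 95% intervals put 7 of the 10 within 0.3 of no difference on the log2 scale in both directions. For comparison, the 40 genes past the threshold had absolute differences of at least 0.30, with a median of 0.70. The exceptions, with intervals that reach further, were *Npas2*, *Cry1* and *Per3*.

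**Figure D2:**
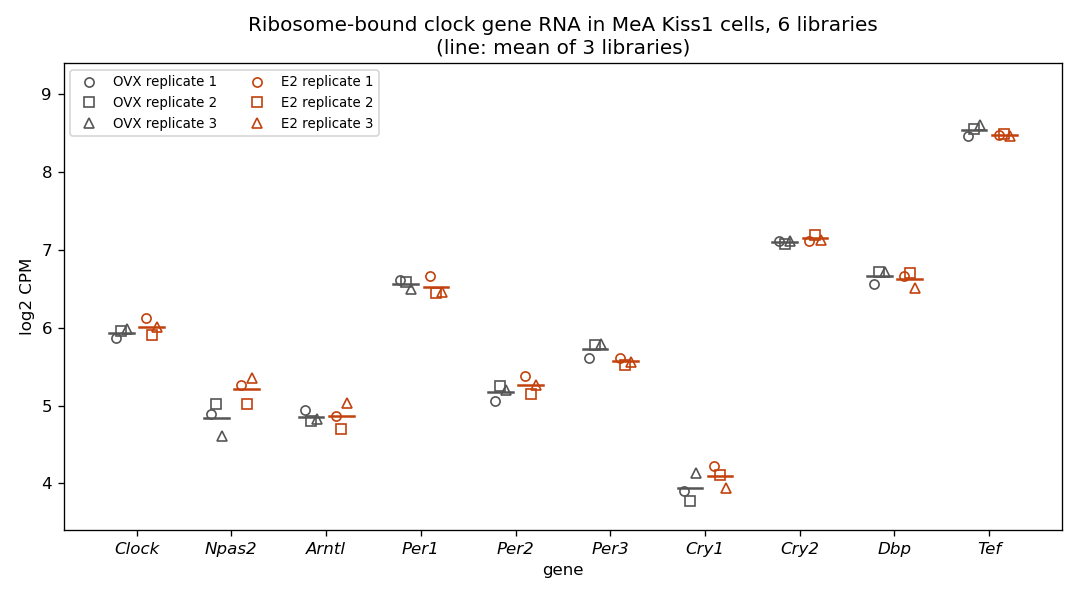
log2 CPM (y axis) of the 10 clock genes (x axis) in the 3 OVX libraries (grey) and the 3 E2 libraries (orange), with a symbol for each replicate number and a line at the mean of 3 libraries. The groups lie on top of each other for nearly every gene, and *Npas2* has the widest gap between the lines, 4.84 against 5.21.

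*Npas2* (ENSMUSG00000026077, chromosome 1 from 39193731 to 39363236, GRCm38) encodes the forebrain relative of CLOCK that pairs with ARNTL. OVX replicates 1, 2 and 3 read 4.89, 5.03 and 4.60 log2 CPM for it, and E2 replicates 1, 2 and 3 read 5.27, 5.01 and 5.36. E2 replicates 1 and 3 were above all OVX libraries, whereas E2 replicate 2 was just below OVX replicate 2, so the groups overlapped. The means were 4.84 ± 0.22 and 5.21 ± 0.18 (SD, n = 3), a difference of 0.37 (SE 0.12, 95% interval 0.12 to 0.63). This is a 1.29-fold higher level (interval 1.08 to 1.55) with an adjusted p of 0.346 in limma, which is not past the threshold. *Npas2* ranked 306 of the 13886 genes by p. Its spread within groups (0.20) was wider than the 0.05 that counting error alone gives for its 682 to 1326 rebuilt counts. Without OVX replicate 3, its lowest library, the difference was 0.25.

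The other activators differed less. *Clock* (ENSMUSG00000029238), the partner of ARNTL in most tissues, had 5.87, 5.95 and 5.98 log2 CPM in OVX and 6.12, 5.91 and 6.01 in E2 libraries. Its groups overlapped, with a difference of 0.08 (SE 0.07, adjusted p = 0.837). *Arntl* (ENSMUSG00000055116), the partner that both share, had 4.95, 4.80 and 4.83 in OVX and 4.87, 4.70 and 5.04 in E2 libraries. The lowest and the highest value both belonged to E2 libraries, and the difference of 0.01 (SE 0.10, 95% interval -0.21 to 0.23, adjusted p = 0.991) was within the spread and changed sign in 3 of the fits with 1 library left out.

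Among the period genes, *Per1* is one that signals through CREB and glucocorticoids are known to induce within an hour, and its E-box stretch is shown above. *Per1* (ENSMUSG00000020893, chromosome 11 from 69095217 to 69109960) had 6.61, 6.59 and 6.50 log2 CPM in OVX and 6.66, 6.45 and 6.46 in E2 libraries. E2 replicate 1 was the highest of all 6 and the other E2 libraries were the lowest, a difference of -0.04 (SE 0.07, 95% interval -0.20 to 0.11, adjusted p = 0.931). *Per2* (ENSMUSG00000055866), whose product carries much of the rhythm in the inhibitory complex, had 5.06, 5.25 and 5.20 in OVX and 5.38, 5.15 and 5.26 in E2 libraries. Its groups overlapped (difference 0.09, SE 0.09, 95% interval -0.10 to 0.29, adjusted p = 0.853).

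*Per3* (ENSMUSG00000028957), the period gene that is dispensable for the core rhythm and the member with a pair of D-boxes, had 5.61, 5.78 and 5.79 log2 CPM in OVX and 5.61, 5.53 and 5.57 in E2 libraries. OVX replicates 2 and 3 were above every E2 library, while OVX replicate 1 lay level with E2 replicate 1. The means were 5.72 ± 0.10 and 5.57 ± 0.04 (SD, n = 3), a difference of -0.16 (SE 0.08, 95% interval -0.32 to 0.01), with an adjusted p of 0.604 in limma. This was the second smallest p among the members and did not pass the threshold.

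The cryptochromes are the stronger repressors of the loop, and *Cry1* is needed for its delay. *Cry1* (ENSMUSG00000020038) had 3.90, 3.77 and 4.13 log2 CPM in OVX and 4.22, 4.10 and 3.94 in E2 libraries. OVX replicate 3 lay above E2 replicates 2 and 3, and the difference of 0.15 (SE 0.13, 95% interval -0.13 to 0.44, adjusted p = 0.816) was the least precise of the 10, and was 0.070 or 0.25 when OVX replicate 2 or 3 was left out. *Cry2* (ENSMUSG00000068742) was the most even, with 7.12, 7.08 and 7.11 in OVX and 7.12, 7.19 and 7.13 in E2 libraries. Its SD over the 6 libraries was 0.04, and 1.27% of all genes had a smaller one. It was the only member whose groups did not overlap, by less than the last digit shown, beside 13.7% of all genes. Its difference was 0.04 (SE 0.06, 95% interval -0.08 to 0.16, adjusted p = 0.900).

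Both PAR bZIP factors were on a high level. The SD over the 6 libraries was 0.06 for *Tef* and 0.09 for *Dbp*, as for *Per1* and *Clock*, beside a median of 0.13 over all genes. *Dbp* (ENSMUSG00000059824), an output gene that swings widely over the day in many tissues, had 6.56, 6.72 and 6.71 log2 CPM in OVX and 6.66, 6.71 and 6.51 in E2 libraries. Its difference was -0.04 (SE 0.07, 95% interval -0.19 to 0.11, adjusted p = 0.938), and it was 0.02 without E2 replicate 3. *Tef* (ENSMUSG00000022389), with an E-box near each of its listed starts, had 8.47, 8.56 and 8.61 in OVX and 8.48, 8.49 and 8.46 in E2 libraries. OVX replicates 2 and 3 were the highest, but OVX replicate 1 lay among the E2 libraries (difference -0.07, SE 0.05, 95% interval -0.19 to 0.05, adjusted p = 0.799). Genes on the opposite strand share 539 of the 2993 exonic bases of *Dbp* (*Sphk2*), 295 of 6320 in *Cry2*, 193 of 7867 in *Tef* and 33 of 7523 in *Arntl*, and reads of these stretches cannot be told apart in unstranded libraries. The 3 members with an E-box match in the searched windows, *Per1*, *Cry1* and *Tef*, thus had differences of -0.04, 0.15 and -0.07, on both sides of 0. Whether other members carry E-boxes outside these windows was not examined.

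**Figure D3:**
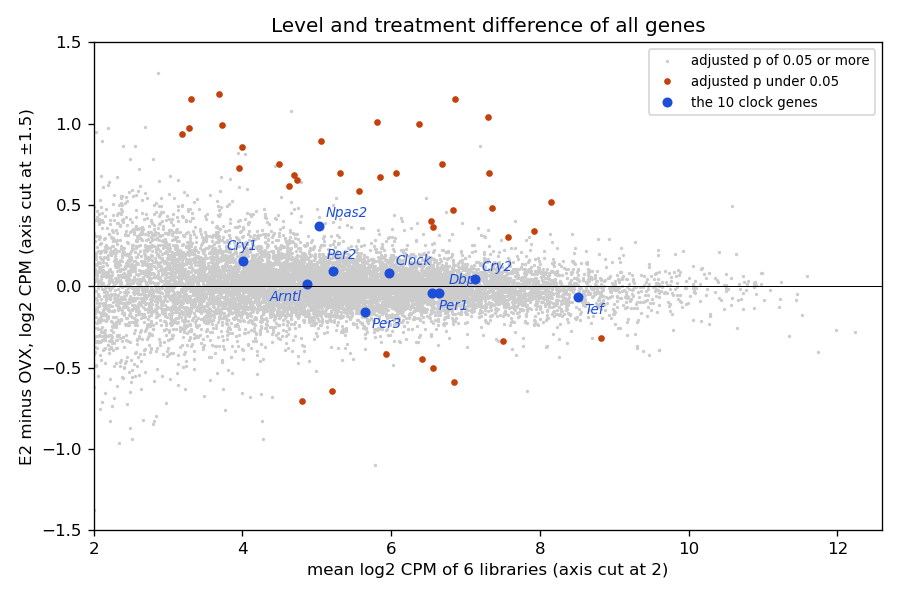
Difference between treatments (y axis, E2 minus OVX in log2 CPM) against the mean log2 CPM of 6 libraries (x axis) for all genes (grey), the genes past the threshold (orange) and the 10 clock genes (blue), with both axes cut so that genes of low level or very large difference are not drawn. The clock genes lie within the grey cloud, with *Npas2* at 0.37 near its upper edge.

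Libraries were set side by side because the pools may differ in time of collection, for which no label is given. The members did not shift as one. E2 replicate 1 was the highest library for *Per1*, *Per2*, *Cry1* and *Clock*, which lay 0.12 to 0.21 above their means. E2 replicate 3 was the highest for both *Npas2* (0.33 above its mean) and *Arntl* (0.18), and the lowest for both *Dbp* (-0.14) and *Tef* (-0.05). E2 replicate 2 was the lowest for *Per1*, *Per3* and *Arntl*. In E2 replicate 3, picked out after its values were seen, the median deviation of the 3 activators was 0.18 and that of the 2 PAR bZIP factors -0.09. The 0.18 is the value of *Arntl*, and *Clock* was at 0.03 in this library. The roles did not part in this way in every library, since both medians were below 0 in OVX replicate 1 (-0.11 and -0.06). The range from the lowest to the highest library was 0.11 for *Cry2*, 0.15 for *Tef*, 0.21 for *Dbp* and *Per1*, and up to 0.75 for *Npas2*. These deviations are a description of 6 pools, and the cause was not tested.

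**Figure D4:**
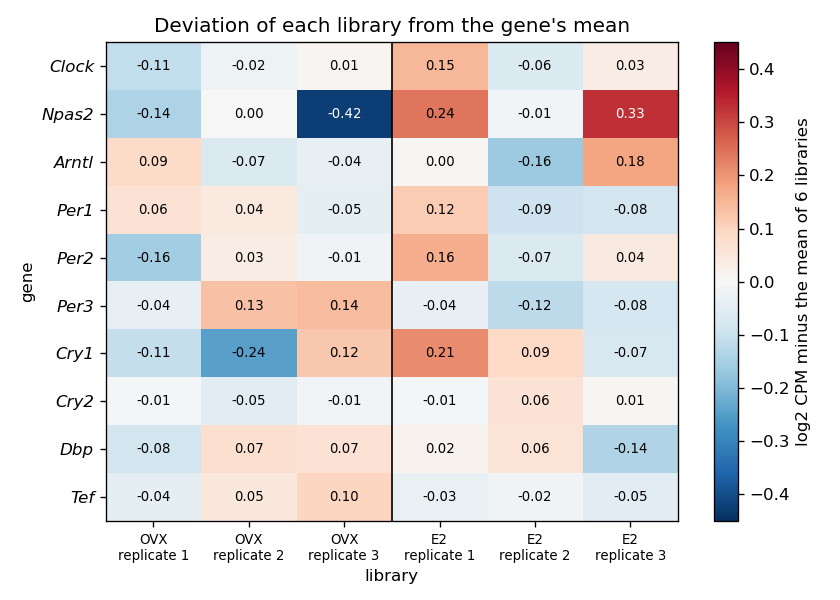
Deviation of each library (columns) from the mean of the 6 libraries for each clock gene (rows), in log2 CPM, with red above and blue below the mean and a black line between OVX and E2 libraries. E2 replicate 3 is above the mean for *Npas2* and *Arntl* and below it for *Dbp* and *Tef*, and the *Cry2* row runs from -0.05 to 0.06.

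The wider clock was read from the same fit, and all 18 genes of its lists were in the table. Of the 4 nuclear receptor genes 0 passed the threshold (0 also at an unadjusted p under 0.05), with a median difference of -0.03. *Nr1d1*, which encodes the *Arntl* repressor REV-ERBα, had a difference of -0.10 (SE 0.06, adjusted p = 0.697). *Nr1d2*, its close relative, had 0.06 (SE 0.06, adjusted p = 0.871), *Rora* -0.03 and *Rorb* -0.03. *Nr1d1* shares 263 of its 3077 exonic bases with *Thra* on the opposite strand, and with unstranded libraries reads there cannot be told apart.

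Of the 7 further feedback factors 0 passed the threshold and 1 had an unadjusted p under 0.05 (8.56% of all genes did), with a median difference of 0.07 against 0.00 over all genes. *Bhlhe41*, which encodes the E-box repressor DEC2, had 5.68, 5.99 and 6.10 log2 CPM in OVX and 6.37, 6.45 and 6.20 in E2 libraries. Every E2 library was above every OVX library, as in 6.85% of all genes. Its difference of 0.42 (SE 0.10, 95% interval 0.20 to 0.64, adjusted p = 0.147, limma) was the largest of all 28 clock genes examined and still not past the threshold. Without OVX replicate 1, its lowest library, the difference was 0.30. The gene model Gm43909 on the opposite strand shares 1280 of the 6720 exonic bases of *Bhlhe41*. *Bhlhe40* (DEC1), its paralog, had a difference of 0.12 (SE 0.10, adjusted p = 0.811). Leaving out OVX replicate 1 gave 0.0021.

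*Hlf*, the remaining PAR bZIP gene, had 6.08, 6.06 and 6.09 in OVX and 5.97, 5.92 and 5.94 in E2 libraries. Every E2 library of *Hlf* was below every OVX library, as in 947 of all 13886 genes. Its difference was -0.13 (SE 0.06, adjusted p = 0.604) beside -0.04 for *Dbp* and -0.07 for *Tef*. *Nfil3*, which encodes the repressor that competes at D-boxes, had a difference of 0.11 (SE 0.16, adjusted p = 0.918). For the remaining factors it was 0.07 (*Ciart*), 0.01 (*Arntl2*) and 0.04 (*Timeless*).

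The 7 kinase and ubiquitin ligase genes that set the stability of PER and CRY proteins had a median absolute difference of 0.05, as had the nuclear receptor genes. None passed the threshold, and 0 had an unadjusted p under 0.05. The casein kinase genes *Csnk1d* and *Csnk1e* had differences of -0.02 and -0.01, *Csnk2a1* -0.05 and *Gsk3b* 0.05. *Fbxl21*, an F-box gene of CRY degradation, had 0.09, and those of PER degradation, *Btrc* and *Fbxw11*, had -0.13 (SE 0.07, adjusted p = 0.688) and -0.05.

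**Figure D5:**
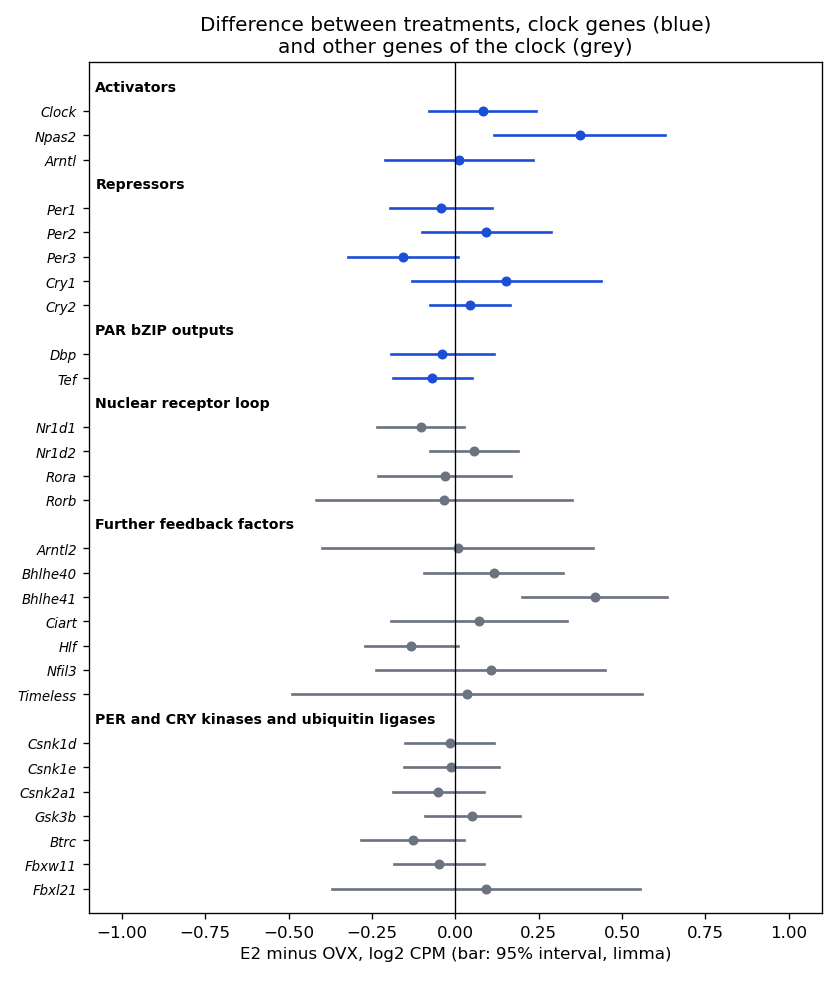
Difference between treatments (x axis, E2 minus OVX in log2 CPM) with its 95% interval from limma for the 10 clock genes (blue) and 18 other genes of the clock (grey), grouped by role on the y axis. The intervals of *Npas2* (0.12 to 0.63) and *Bhlhe41* (0.20 to 0.64) lie above 0, and all others include it.

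Since *Per1* is a known target of activity and of glucocorticoids, genes known for these responses were read beside it. Of 14 activity-induced genes 0 passed the threshold, 4 had an unadjusted p under 0.05 and 2 were higher with E2, with a median difference of -0.22. Over all genes these counts were 8.56% and 7089 of 13886, and the median was 0.00. The smallest p belonged to *Fosl2*, an AP-1 subunit (difference 0.45, SE 0.12, adjusted p = 0.195). The other 3 at an unadjusted p under 0.05 were lower with E2, namely the orphan nuclear receptor genes *Nr4a3* (-0.40) and *Nr4a1* (-0.38) and the phosphatase gene *Dusp1* (-0.40), named here after their values were seen. Of 10 glucocorticoid-responsive genes 0 passed the threshold, 4 had an unadjusted p under 0.05 and 7 were higher with E2, with a median difference of 0.15, to be read against the same all-gene values. Here the smallest p belonged to *Tsc22d3*, which encodes GILZ (difference 0.39, SE 0.11, adjusted p = 0.253). *Nfkbia* (0.32), *Klf9* (0.21) and *Pdk4* (-0.57), also named after their values were seen, were the other 3. The *Per1* difference of -0.04 lay between these medians, and the difference between *Per1* and either list was not tested.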

How the data were processed

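Pooled MeA punches were taken through HA immunoprecipitation, and unstranded polyA libraries were sequenced. The deposited values are log2 CPM that the authors made with Trimmomatic 0.38, STAR 2.6.0a, RSEM and voom on GRCm38 (TMM scaling). The restriction to protein-coding regions is the paper's statement, and gene types were not checked over the whole table. A deposited table of the authors' own comparison (fold changes, p-values) was not used. Columns were matched to libraries by the labels. E2 was compared with OVX over 13886 genes and 6 libraries with limma 3.58.1 in R 4.3.3 (mean-variance trend, treatment as the only term, two-sided, Benjamini-Hochberg), and the step was tested on simulated data. The 95% intervals are those of limma. Rebuilt counts set the lowest value of each library to a count of 0, with the 0.5 added by voom removed. The counting spread quoted covers counting error only. Permuting 3 against 3 pools allows no p under 0.1. Lengths, positions and shared exons came from GENCODE mouse release 21 (GRCm38). The genes named are the 10 members, the genes of the wider clock lists, *Kiss1* and the 5 genes most like *Dbp*. Of the response lists they are the smallest p and the other genes at an unadjusted p under 0.05. Genes that share exons with these, markers that were not listed and the marker *Slc17a7* are also named. Some genes are not reported here. The members and lists were chosen with earlier results of these data known. Alternatives changed the trend, weights, scaling, pseudocount (1 or 0.1), filters (mean log2 CPM of at least 1, or CPM over 1 in all 6 libraries), block and libraries.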

Additional observations from a re-analysis of the deposited data

How the results depend on the processing

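None of the 10 clock genes passed the threshold under any of the 16 alternatives, with adjusted p-values down to 0.173 (*Npas2* without OVX replicate 2), and *Npas2* was 0.25 to 0.47 higher with E2 with 1 library left out. With 1 library left out, *Bhlhe41* was 0.30 (without OVX replicate 1) to 0.51 (without OVX replicate 3) higher with E2. Its adjusted p in these limma fits was between 0.0822 (without E2 replicate 3) and 0.481 (without OVX replicate 1). In all, 156 of 160 values of the members kept their sign and their side of the threshold. The number of genes called over the table was 40. It was 0 without the trend (1017 at an unadjusted p under 0.05) and 20 to 66 with 1 library left out (21 without OVX replicate 1, 26 without E2 replicate 1, 20 without E2 replicate 2, 66 without E2 replicate 3). The replicate numbers did not pair the libraries (correlations of -0.02, -0.12 and -0.08 across genes), and a replicate block gave 35 calls and 0 members called. Values near 0 changed sign with 1 library left out, over ranges of -0.074 to 0.096 for *Arntl*, -0.089 to 0.020 for *Dbp*, -0.077 to 0.026 for *Rora*, -0.18 to 0.15 for *Rorb*, -0.10 to 0.14 for *Arntl2*, -0.13 to 0.22 for *Timeless*, -0.051 to 0.030 for *Csnk1d*, -0.042 to 0.027 for *Csnk1e*, -0.018 to 0.092 for *Gsk3b* and -0.020 to 0.19 for *Fbxl21*. Without a change of sign, leaving out 1 library still moved small differences by over 1.5 times. The ranges for members, with the library left out at the lower and the upper end in brackets, were -0.11 to -0.0054 for *Per1* (E2 replicate 1, E2 replicate 2), 0.034 to 0.15 for *Per2* and 0.027 to 0.13 for *Clock* (both E2 replicate 1, E2 replicate 2), 0.070 to 0.25 for *Cry1* (OVX replicate 2, OVX replicate 3), 0.023 to 0.058 for *Cry2* (E2 replicate 2, E2 replicate 1) and -0.11 to -0.038 for *Tef* (OVX replicate 1, OVX replicate 3). With median centring *Arntl2* had -0.0020, and with quantile normalization *Arntl2* had -0.014. Levels per kilobase rest on the longest annotated transcript, which need not be the one used in these cells.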

Other observations

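The genes whose 6 library values ran closest to those of *Dbp* were *Fam117b*, *Alkbh5*, *Sec22b*, *Thoc3* and *Ppp2cb*. Each gene was centred on its mean, and the root mean square difference from *Dbp* was 0.02 to 0.03 log2 CPM, where the SD of *Dbp* over the libraries was 0.09. The comparison covered 11775 genes with an SD of at least 0.8 of that of *Dbp*, over 6 libraries. *Dbp* was lowest in E2 replicate 3 and next in OVX replicate 1. The same held for each of the 5 but *Sec22b*, in which OVX replicate 1 was the lowest and E2 replicate 3 the next. None of the 5 was in a clock list.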
